A study of Arabidopsis thaliana with 36 samples.

Results

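The DETOXIFICATION (DTX) genes encode the MATE transporters (multidrug and toxic compound extrusion) of Arabidopsis. Members were taken as the rows of the count table whose gene description reads "Protein DETOXIFICATION", apart from 3 rows that the rule leaves out, which gave 52 of 32833 genes. Of these, 51 carry a DTX number and 1, AT4G21903, has no name in the table. They lie on all chromosomes, with 21 on chromosome 1, 8 on chromosome 2, 7 each on chromosomes 3 and 4 and 9 on chromosome 5. As many as 16 members sit in 5 tandem clusters, defined as members with at most 3 other annotated genes between neighbours: DTX10 to DTX13, then DTX23, DTX22, DTX20 and DTX21, then DTX9 and DTX8 (all on chromosome 1), DTX4, DTX2, DTX5 and DTX6 (chromosome 2), and DTX18 and DTX19 (chromosome 3).

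MATE proteins are secondary transporters of membranes: they use a proton or sodium gradient to move organic substrates out of the cytosol, into the vacuole or out of the cell. Plant members carry flavonoids, alkaloids, citrate, hormones and foreign toxins, and for many of them no substrate is known. They act beside the enzymes that modify toxic compounds, such as glutathione S-transferases, glycosyltransferases and P450 monooxygenases, and beside the ABC exporters.

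RNA was sequenced separately from shoots and roots of 11-day-old plants grown hydroponically. In each tissue there were 5 groups of tpst and 1 of Col-0, with 3 biological replicates a group and 36 libraries in all. Of the tpst groups 1 was left untreated, and the others received PSK at 10 nM over 30 min, over 2 h, over 5 h or over all 11 days. The Col-0 wild type was untreated as well. The question was which genes respond to phytosulfokine (PSK), a sulfated peptide hormone, in plants that do not make its active form.

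The tpst line is a T-DNA mutant of the single Arabidopsis gene for tyrosylprotein sulfotransferase, in the Col-0 background, so every tpst group also lacked the other sulfated peptide hormones. For the 30 min, 2 h and 5 h groups the medium was replaced by fresh medium with PSK, whereas plants of the 11 day group had PSK around them from germination on. The untreated plants had no change of medium, so the short PSK treatments and the medium change cannot be told apart against them. Each replicate was RNA from pooled seedlings divided into shoot and root.

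The libraries held 21559655 to 36921510 counts, and no pair of libraries was identical. TPST had 5.18 to 6.28 CPM (counts scaled to library size) in untreated tpst shoots, against 15.0 to 17.6 CPM in Col-0 shoots, and 12.8 to 15.3 CPM in untreated tpst roots, against 27.6 to 29.1 CPM in Col-0 roots. All 16 photosynthesis markers were lower in Col-0 roots than in Col-0 shoots and all 9 root markers were higher there, and none of them was at 0 in all libraries of a group. The photosynthesis markers summed to 2460 CPM in untreated tpst root replicate 3, and no other root library exceeded 1157 CPM. The 13 clock genes that peak around dawn summed to 753 to 857.5 CPM in shoots given PSK for 5 h and 827 to 919 CPM in shoots given PSK for 11 days, against 198 to 217 CPM in untreated tpst shoots. In roots their sums were 529 to 549 CPM after 5 h and 482 to 574.5 CPM after 11 days, against 123 to 144 CPM in untreated tpst. In Col-0 they summed to 131 to 167 CPM in shoots, below the untreated tpst shoots, and to 133 to 161.5 CPM in roots. The hour of collection is not given in the sources used here, and the part of time of day in the results below was not tested.

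Levels of different members were compared as the FPKM values deposited by the authors, which allow for gene length. In Col-0 roots the most abundant members were DTX36 with 193, 189 and 262 FPKM and DTX37 with 195, 169 and 238 FPKM in the 3 libraries. Their ranges overlapped, and together they made up 46.4% of the summed FPKM of the family in Col-0 roots. DTX35 followed with 73.0 ± 1.54 FPKM, DTX33 with 48.6 ± 2.04 FPKM and DTX27 with 38.6 ± 3.94 FPKM (SD, n = 3 each), and each of these steps exceeded the spread of the libraries. In Col-0 shoots the order began with DTX37 at 93.1 ± 20.9 FPKM, DTX35 at 87.7 ± 3.73 FPKM, DTX40 at 58.0 ± 6.57 FPKM and DTX33 at 54.7 ± 2.83 FPKM (SD, n = 3 each). DTX37 and DTX35 overlapped there, as did DTX40 and DTX33, and the 4 genes held 50.4% of the summed FPKM. A level of at least 10 FPKM was reached by 13 members in Col-0 roots and by 17 in Col-0 shoots, and 19 members lay under 1 FPKM in each tissue. Of 51 neighbouring pairs in the order, 40 overlapped in Col-0 roots and 44 in Col-0 shoots.

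**Figure D1:**
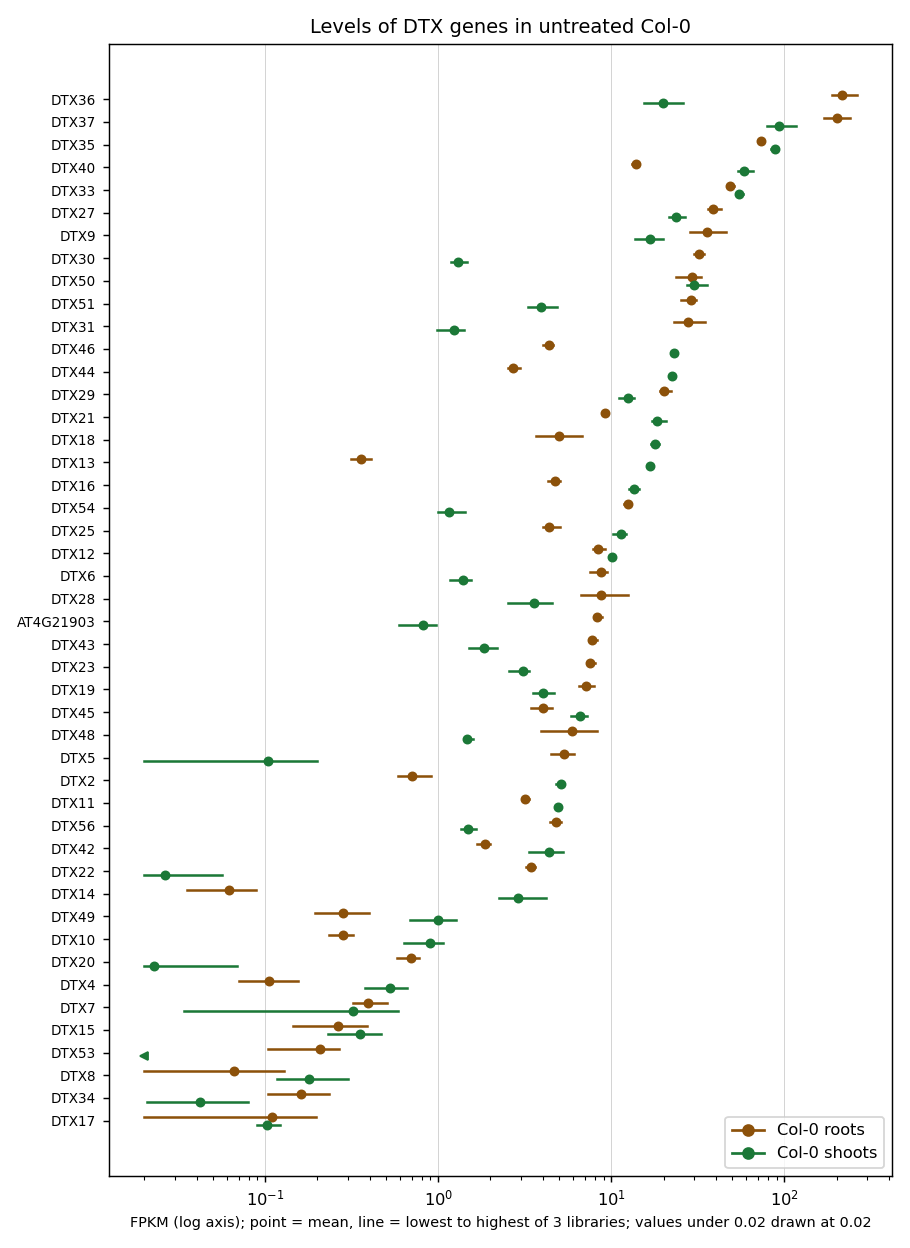
Mean FPKM of DTX genes with at least 0.1 FPKM in 1 of the tissues, in Col-0 roots (brown) and Col-0 shoots (green), on a log axis with lines from the lowest to the highest of 3 libraries. DTX36 and DTX37 lead in roots at 215 and 200 FPKM, while DTX37 and DTX35 lead in shoots at 93.1 and 87.7 FPKM.

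A member was called where the fold was at least 2 and the adjusted p of the quasi-likelihood test of edgeR, over all genes tested, was under 0.05. Between Col-0 roots and Col-0 shoots, 19 of 46 tested members were higher in roots and 14 were lower, where 41.3% of all genes were called (21.5% higher and 19.8% lower). Members found mainly in roots included DTX22 (log2 difference 6.87 ± 0.53), DTX5 (5.59 ± 0.31), DTX30 (4.57 ± 0.26), DTX31 (4.44 ± 0.40) and DTX36 (3.41 ± 0.29), given with SE. DTX20 and DTX53 were also called higher in roots, with 0 to 0.109 CPM and 0 CPM in Col-0 shoots. DTX13 (-5.57 ± 0.31), DTX14 (-5.56 ± 0.53) and DTX44 (-3.07 ± 0.13) had the most negative log2 differences, that is, higher levels in Col-0 shoots. Several of these sizes rest on low counts in the lower tissue. DTX22 had 0 to 0.0911 CPM and DTX5 0 to 0.319 CPM in Col-0 shoots. In Col-0 roots DTX14 had 0.0739 to 0.186 CPM and DTX13 0.739 to 0.956 CPM. Within the chromosome 2 cluster DTX5 and DTX6 were higher in roots while DTX4 and DTX2 were higher in shoots. In the DTX23 cluster, DTX23, DTX22 and DTX20 were higher in roots and DTX21 in shoots.

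Counts sufficed for a test of 41 members in shoots and 45 in roots. The 7 members tested in neither tissue were DTX17, DTX24, DTX26, DTX32, DTX41, DTX52 and DTX55, none of which exceeded 13 counts in any library. DTX41 (TT12), which loads proanthocyanidin precursors into seed coat vacuoles, is one of them. DTX55 had 0 counts in all 36 libraries, which allows a level of up to 0.00318 CPM (3 counts over all libraries, counting error only). Over the 10 comparisons of PSK or Col-0 with untreated tpst, 26 members were called at least once. Of these, 21 were called in shoots and 13 in roots. Another 19 tested members were called in none. The share of all genes called at least once over these comparisons was not counted, so these counts cannot be set against it. The called members include DTX8 in shoots and DTX49 in roots, each of which had enough counts for a test only through the group where it was high.

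**Figure D2:**
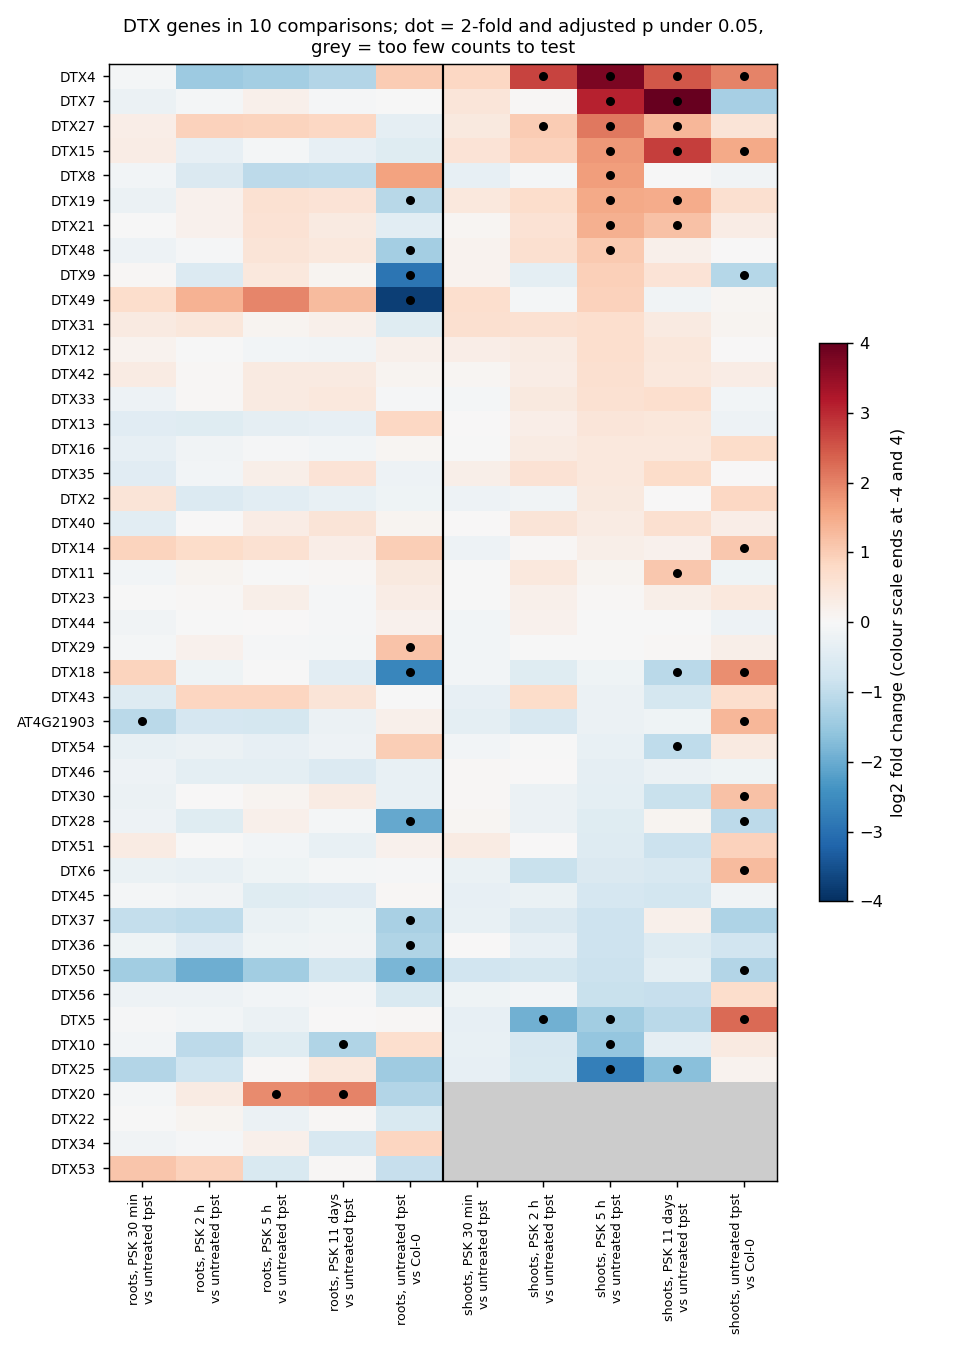
Log2 fold changes of the 45 members tested in at least 1 tissue, by comparison, with roots on the left and shoots on the right; red is higher and blue lower in the group named before "vs". Dots mark a fold of at least 2 with an adjusted p under 0.05, and the 4 grey rows on the right are members with too few counts in shoots.

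In shoots the response to PSK was small after 30 min and wide after 5 h. No member was called after 30 min of PSK (edgeR and DESeq2), while edgeR called 0.663% of all genes, 0.389% higher and 0.274% lower. The unadjusted p was under 0.05 for 8 of 41 members, a share that was not counted over all genes. After 2 h DTX4 and DTX27 were upregulated and DTX5 downregulated, with 4.29% of all genes called, 1.94% higher and 2.35% lower. After 5 h 8 members were upregulated (DTX27, DTX21, DTX4, DTX19, DTX15, DTX7, DTX48 and DTX8) and 3 were downregulated (DTX25, DTX10 and DTX5), which is 26.8% of the 41 tested, beside 17% of all genes (7.72% higher and 9.3% lower). DTX8 passed the filter on low counts only through the 5 h group, where it was high, which leaves 10 called members, 7 upregulated and 3 downregulated, without it. After 11 days 7 were upregulated (DTX21, DTX19, DTX27, DTX4, DTX15, DTX7 and DTX11) and 3 downregulated (DTX25, DTX18 and DTX54), 24.4% beside 14.7% of all genes (6.99% higher and 7.76% lower). The median log2 fold change of the members tested was 0.12 after 5 h and 0.11 after 11 days, against medians of -0.01 over all genes in both. All 4 comparisons share the 3 untreated tpst libraries.

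DTX4, of the chromosome 2 cluster, showed the largest fold change among the members called after 2 h and after 5 h. Its level was 2.28, 2.97 and 4.09 CPM in untreated tpst shoots, 5.14, 7.38 and 4.16 CPM after 30 min of PSK, 16.5, 16.9 and 27.7 CPM after 2 h, 32.6, 51.3 and 43.4 CPM after 5 h and 21.6, 15.7 and 15.1 CPM after 11 days. From 30 min on, every treated library lay above the untreated ones. Its log2 fold change was 2.69 ± 0.27 after 2 h (SE, adjusted p = 2.3e-06), 3.75 ± 0.28 after 5 h (adjusted p = 8.3e-09) and 2.47 ± 0.27 after 11 days (adjusted p = 1.1e-06). In Col-0 shoots it had 1.00, 0.580 and 0.825 CPM, below every tpst library.

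From 2 h of PSK on, DTX27 had the highest mean CPM among the members called with PSK in shoots. It had 62.7, 55.3 and 62.1 CPM in untreated tpst shoots, 81.5, 79.5 and 76.2 CPM after 30 min, 106, 135 and 123 CPM after 2 h, 317, 248 and 217 CPM after 5 h and 168, 144 and 139 CPM after 11 days. No library given PSK overlapped the untreated ones. The log2 fold change was 1.01 ± 0.13 after 2 h (SE, adjusted p = 2e-05), 2.12 ± 0.13 after 5 h (adjusted p = 1.1e-09) and 1.33 ± 0.13 after 11 days (adjusted p = 2.1e-07). The 2 h value sat at the 2-fold limit and fell below it, to 0.93 to 0.9996, when untreated replicate 2, 2 h replicate 2 or 2 h replicate 3 was left out.

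DTX21 belongs to the cluster of DTX23, DTX22 and DTX20. It had 39.2, 40.3 and 45.1 CPM in untreated tpst shoots, 45.8, 43.5 and 41.8 CPM after 30 min, 59.1, 65.9 and 60.4 CPM after 2 h, 114, 115 and 102 CPM after 5 h and 94.2, 99.3 and 85.5 CPM after 11 days. The groups separated from 2 h on. Its log2 fold change was 1.41 ± 0.09 after 5 h (SE, adjusted p = 1.2e-09) and 1.16 ± 0.09 after 11 days (adjusted p = 1.2e-08), while 0.57 after 2 h stayed under the 2-fold limit. Of its neighbours, DTX23 had log2 fold changes between -0.01 and 0.23 over the 4 treatments in shoots, and DTX20 and DTX22 had too few counts there to test.

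DTX19 (ALF5) protects roots against toxic compounds in the growth medium. It had 11.5, 11.7 and 11.4 CPM in untreated tpst shoots, 16.6, 16.9 and 12.5 CPM after 30 min, 20.3, 19.7 and 15.9 CPM after 2 h, 33.5, 32.9 and 32.8 CPM after 5 h and 35.6, 33.3 and 28.8 CPM after 11 days. All treated libraries exceeded the untreated ones. The log2 fold change was 1.52 ± 0.13 after 5 h (SE, adjusted p = 3.1e-08) and 1.499 ± 0.13 after 11 days (adjusted p = 4.7e-08). DTX18, its neighbour, exports coumaroylagmatine, an antimicrobial hydroxycinnamic acid amide, to the leaf surface. It had 52.0, 65.8 and 21.6 CPM in shoots given PSK for 11 days, against 107, 88.3 and 102 CPM in untreated tpst shoots, without overlap (log2 -1.08 ± 0.34 SE, adjusted p = 0.012). The DTX18 change rests on the library at 21.6 CPM, since without 11 day replicate 3 it was -0.74 (adjusted p = 0.054). The 30 min, 2 h and 5 h values of DTX18 were log2 -0.12, -0.47 and -0.18, none of them called.

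The 250 bases before the annotated start are shown for the 4 members that rose after both 5 h and 11 days with at least 10 CPM after 5 h (DTX4, DTX27, DTX21 and DTX19) and for DTX25, the member with the lowest fold change at 5 h. They were read from the TAIR10.1 genome of RefSeq, in which all 52 members have the coordinates of the count table. Each runs 5′ to 3′ on the strand of its gene, and capitals mark matches on either strand to any of 5 motifs searched.
DTX4, chr2:1355884-1356133, minus strand: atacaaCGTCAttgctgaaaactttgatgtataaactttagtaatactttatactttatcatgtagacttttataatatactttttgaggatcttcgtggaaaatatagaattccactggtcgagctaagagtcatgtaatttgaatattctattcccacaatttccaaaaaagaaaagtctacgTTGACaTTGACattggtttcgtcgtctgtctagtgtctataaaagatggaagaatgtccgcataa
DTX27, chr5:26126561-26126810, minus strand: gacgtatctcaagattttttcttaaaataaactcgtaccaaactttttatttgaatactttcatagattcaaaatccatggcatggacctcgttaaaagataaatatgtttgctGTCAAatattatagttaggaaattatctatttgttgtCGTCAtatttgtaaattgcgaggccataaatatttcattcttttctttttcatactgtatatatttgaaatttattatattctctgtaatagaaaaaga
DTX21, chr1:12004604-12004853, plus strand: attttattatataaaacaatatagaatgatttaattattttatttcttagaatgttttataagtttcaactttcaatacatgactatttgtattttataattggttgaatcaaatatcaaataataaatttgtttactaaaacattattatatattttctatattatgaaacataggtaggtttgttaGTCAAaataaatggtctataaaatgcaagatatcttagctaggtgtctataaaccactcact
DTX19, chr3:8456709-8456958, minus strand: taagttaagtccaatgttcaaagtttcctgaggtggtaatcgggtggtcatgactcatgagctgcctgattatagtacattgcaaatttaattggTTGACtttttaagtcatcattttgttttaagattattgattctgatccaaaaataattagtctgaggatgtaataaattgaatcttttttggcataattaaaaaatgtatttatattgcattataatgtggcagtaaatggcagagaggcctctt
DTX25, chr5:5834001-5834250, minus strand: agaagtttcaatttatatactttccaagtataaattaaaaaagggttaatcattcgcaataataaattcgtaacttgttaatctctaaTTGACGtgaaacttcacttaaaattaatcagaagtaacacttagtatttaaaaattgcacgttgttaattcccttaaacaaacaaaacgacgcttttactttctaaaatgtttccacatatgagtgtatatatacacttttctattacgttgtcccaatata
The motifs were TGACG, the core bound by TGA bZIP factors, TTGAC, the W-box core of WRKY factors, CACGTG, the G-box, AAATATCT, the evening element, and the mitochondrial dysfunction motif. TGACG and TTGAC can overlap, as they do in TTGACG upstream of DTX25. In these stretches DTX4 has 1 TGACG and 2 TTGAC matches, DTX27 has 1 of each, DTX21 and DTX19 have 1 TTGAC match each and no TGACG, and DTX25 has 1 of each in the overlapping run. None of the 5 sequences holds a match to the other 3 motifs.

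Across the family, in windows of 300 bases (250 before to 50 after the start), TGACG was found for 28.8% of the members and 23.1% of 27419 protein-coding genes. TTGAC was found for 55.8% and 50.5%, CACGTG for 11.5% and 7.67%, AAATATCT for 3.85% and 5.65%, and the mitochondrial dysfunction motif for none of the members and 2.14% of the genes. The 6 members with a G-box were DTX10, DTX12, DTX13, DTX48, DTX9 and DTX6. A match is a description of the letters in the window and was not tied to the expression values by a test.

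**Figure D3:**
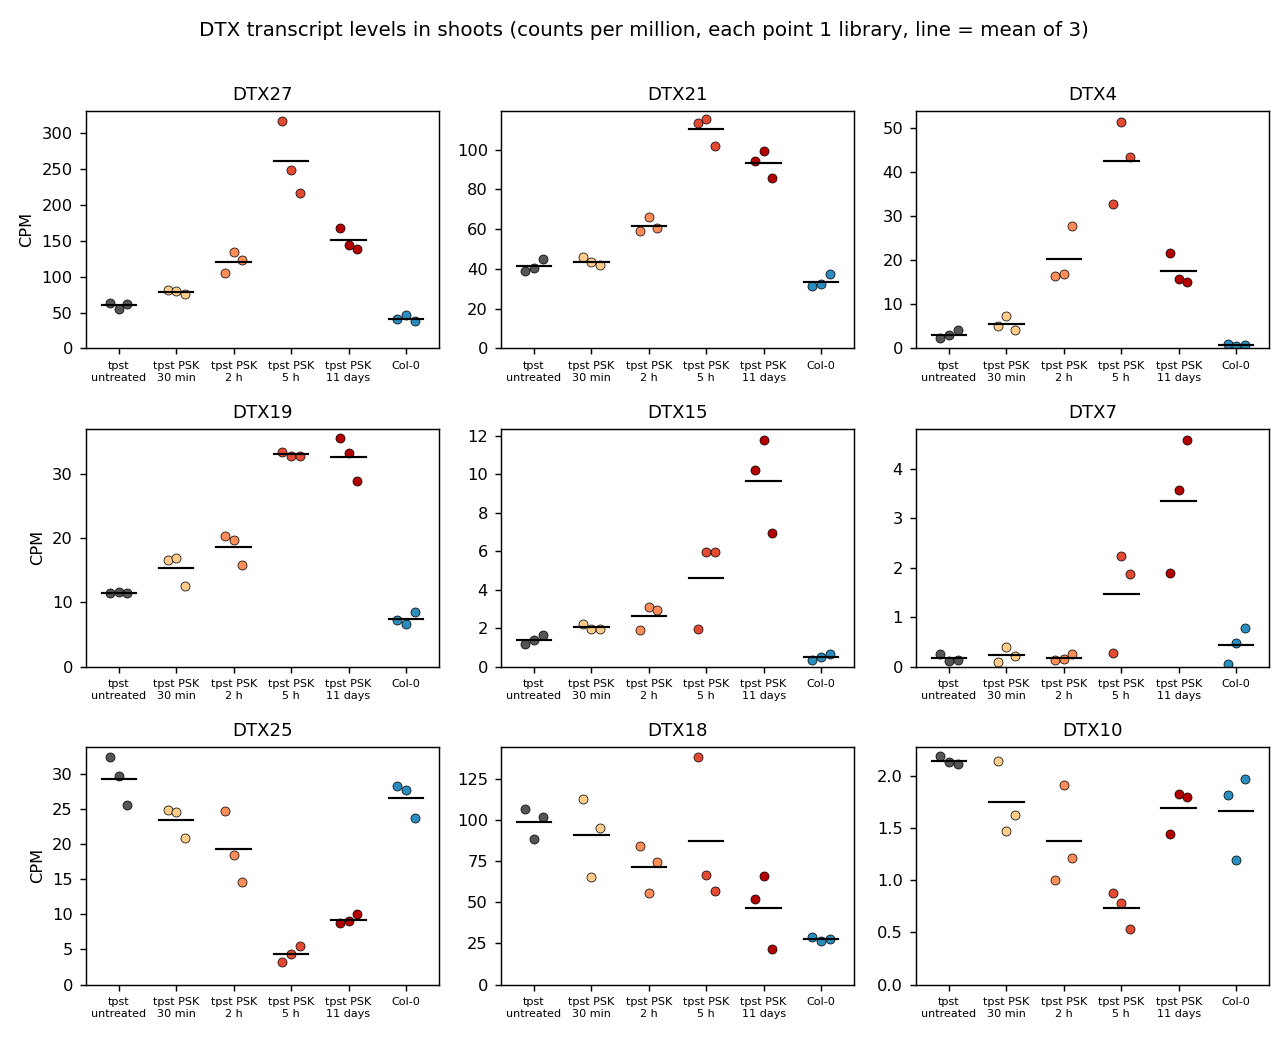
CPM of 9 members in the 18 shoot libraries, 1 point a library and a line at the mean of 3, with untreated tpst at the left, the PSK times in order and Col-0 at the right. DTX27, DTX21, DTX4 and DTX19 were above every untreated tpst library after 5 h and 11 days of PSK, and DTX25 was below every one.

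Members with low counts also responded in shoots. DTX15 had 1.94, 5.95 and 5.99 CPM after 5 h and 10.2, 11.8 and 6.95 CPM after 11 days, against 1.16, 1.37 and 1.66 CPM in untreated tpst shoots. Its log2 fold change was 1.73 ± 0.35 after 5 h (SE, adjusted p = 0.00047) and 2.78 ± 0.35 after 11 days (adjusted p = 4.3e-06), with 1 of the 5 h libraries far below the other 2. DTX7 had 0.277, 2.23 and 1.88 CPM after 5 h and 1.89, 3.58 and 4.58 CPM after 11 days, against 0.258, 0.121 and 0.139 CPM in untreated tpst shoots. The same 5 h library, replicate 1, was close to the untreated ones, and the log2 fold change was 3.09 ± 0.76 after 5 h (SE, adjusted p = 0.0023) and 4.26 ± 0.74 after 11 days (adjusted p = 0.00013). DTX11, of the chromosome 1 cluster, had 13.4, 14.0 and 12.3 CPM after 11 days, against 6.37, 6.67 and 5.78 CPM in untreated tpst shoots (log2 1.08 ± 0.20 SE, adjusted p = 0.00025), and 3.73, 7.47 and 9.09 CPM after 5 h. DTX48 (BCD1), a transporter linked to iron homeostasis, had 6.41, 5.52 and 5.37 CPM after 5 h, against 2.80, 2.53 and 3.01 CPM in untreated tpst shoots. Its log2 fold change of 1.05 ± 0.30 (SE, adjusted p = 0.0072) fell to 0.98 without untreated replicate 2 and to 0.97 without 5 h replicate 1. DTX8 reached 0.645, 1.33 and 0.537 CPM after 5 h, against 0.258, 0.241 and 0.277 CPM in untreated tpst shoots (log2 1.68 ± 0.60 SE, adjusted p = 0.025). The DTX8 call was lost without any 1 of the untreated libraries (adjusted p = 0.058 to 0.071) or without 5 h replicate 2 (log2 1.17, adjusted p = 0.16).

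Of the members that fell, DTX25, a vacuolar transporter with a role in iron homeostasis of seedlings, changed most. It had 32.3, 29.7 and 25.6 CPM in untreated tpst shoots, 24.9, 24.6 and 20.8 CPM after 30 min, 24.6, 18.5 and 14.6 CPM after 2 h, 3.27, 4.42 and 5.49 CPM after 5 h and 8.72, 9.02 and 10.0 CPM after 11 days. All treated libraries lay below the untreated ones, and those of 5 h lay below those of 11 days. The log2 fold change was -2.72 ± 0.19 after 5 h (SE, adjusted p = 4e-09) and -1.66 ± 0.17 after 11 days (adjusted p = 6.2e-07). DTX10 had 0.876, 0.783 and 0.537 CPM after 5 h, against 2.19, 2.13 and 2.11 CPM in untreated tpst shoots (log2 -1.55 ± 0.29 SE, adjusted p = 0.00025). Its cluster neighbours DTX11, DTX12 and DTX13 were not called at 5 h, with log2 fold changes of 0.12, 0.66 and 0.49 in that order. DTX5 had 0.209, 0.230 and 0.209 CPM after 2 h and 0.323, 0.235 and 0.384 CPM after 5 h, against 0.860, 0.804 and 0.831 CPM in untreated tpst shoots. DTX5 thus moved opposite to DTX4 of the same cluster, with a log2 fold change of -1.92 ± 0.50 after 2 h (SE, adjusted p = 0.0086) and -1.39 ± 0.47 after 5 h (adjusted p = 0.019). Without 5 h replicate 2 the 5 h value was -1.22 (adjusted p = 0.079). DTX2 and DTX6, the other members of that cluster, had log2 fold changes of 0.40 and -0.57 at 5 h and were not called. DTX54 had 1.56, 0.657 and 1.88 CPM after 11 days, against 3.61, 2.85 and 1.77 CPM in untreated tpst shoots, and the groups overlapped. It was at the limit (log2 -1.01 ± 0.32 SE, adjusted p = 0.015) and passed it no longer with RLE factors (log2 -0.997), with DESeq2 (log2 -0.999) or without untreated replicate 1 (log2 -0.76), untreated replicate 2 (log2 -0.98) or 11 day replicate 2 (log2 -0.66). The 9 root markers summed to 723 to 861 CPM in shoots after 5 h and 680 to 782 CPM after 11 days, against 863 to 1001 CPM in untreated tpst shoots, with 8 of the 9 lower by their means and 6 of the 9 called lower in each comparison. Most of each sum was PYK10, with 708 to 846 CPM after 5 h, 669 to 770 CPM after 11 days and 844 to 973 CPM in untreated tpst. DTX5 and DTX54 were higher in Col-0 roots than in Col-0 shoots, and the part of root RNA in their change was not tested. In bulk tissue, fewer cells of a type and less RNA per cell cannot be told apart.

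Between 5 h and 30 min of PSK, both of which had fresh medium, 7 members were higher after 5 h (DTX21, DTX27, DTX4, DTX19, DTX7, DTX15 and DTX8) and 2 were lower (DTX25 and DTX10), with 10.7% of all genes called (5.26% higher and 5.41% lower). DTX8 was again tested only through the 5 h group. Time in fresh medium and time in PSK differed together in this comparison, in either tissue, and cannot be told apart. DTX27 differed by a log2 of 1.72 ± 0.13 (SE, adjusted p = 2.3e-08), DTX4 by 2.93 ± 0.26 (adjusted p = 1.6e-07) and DTX25 by -2.40 ± 0.19 (adjusted p = 3.8e-08). Against Col-0, shoots of tpst with 11 days of PSK were higher in 9 members (DTX21, DTX19, DTX27, DTX4, DTX16, DTX15, DTX14, AT4G21903 and DTX7) and lower in 3 (DTX25, DTX36 and DTX50), with 19.8% of all genes called (10.6% higher and 9.25% lower). DTX4 and DTX15 stood furthest above Col-0, by log2 4.46 ± 0.34 (SE, adjusted p = 6.5e-09) and 4.29 ± 0.40 (adjusted p = 9.8e-08), and DTX25 was lower by log2 -1.52 ± 0.17 (adjusted p = 1.1e-06).

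In roots few members were called with PSK, in comparisons that again share the 3 untreated tpst libraries. The photosynthesis markers summed to 450 to 594 CPM after 30 min, 507.5 to 612 CPM after 2 h, 665 to 1150 CPM after 5 h and 701 to 1157 CPM after 11 days, against 401, 358 and 2460 CPM in the untreated tpst roots, and their part in the root results was not tested. AT4G21903 was the only member called after 30 min, where 0.478% of all genes were called, 0.0843% higher and 0.393% lower. It had 11.3, 10.5 and 13.8 CPM in roots given PSK for 30 min, against 24.5, 23.9 and 26.8 CPM in untreated tpst roots, without overlap (log2 -1.08 ± 0.14 SE, adjusted p = 0.001). Without 30 min replicate 2 the value was -0.99 (adjusted p = 0.019). At the later times it had 13.8, 16.6 and 16.4 CPM after 2 h, 11.9, 15.9 and 18.5 CPM after 5 h and 20.2, 22.2 and 21.2 CPM after 11 days, so that all treated libraries were below the untreated ones while no later value passed 2-fold. No member was called after 2 h by edgeR, while DESeq2 called DTX50, and edgeR with a replicate block or on those 6 libraries alone called DTX37 and DTX50. The unadjusted p was under 0.05 for 9 of 45 members, a share that was not counted over all genes. Over all genes 1.41% were called, 0.398% higher and 1.01% lower. DTX37 had 73.2, 134 and 137 CPM in roots after 30 min and 69.0, 122 and 139.5 CPM after 2 h. Both groups lay below the 181, 217 and 266 CPM of untreated tpst roots without overlap.

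DTX20 was higher in roots of the 5 h and 11 day PSK groups than in untreated tpst roots. It had 1.62, 1.78 and 3.65 CPM after 5 h and 2.44, 3.36 and 1.70 CPM after 11 days, against 0.516, 0.515 and 0.845 CPM in untreated tpst roots. The groups did not overlap, and the log2 fold change was 1.90 ± 0.43 after 5 h (SE, adjusted p = 0.0066) and 1.98 ± 0.42 after 11 days (adjusted p = 0.0061). After 30 min and 2 h it had 0.422 to 0.763 CPM and 0.346 to 1.096 CPM. DTX20 was the only member called at 5 h, where 2.49% of all genes were called (1.4% higher and 1.09% lower); in a fit of those 6 libraries alone its adjusted p was 0.051. Its neighbours in the cluster differed: DTX21, DTX22 and DTX23 had log2 fold changes of 0.57, -0.22 and 0.23 after 5 h and were not called. After 11 days 2% of all genes were called (1.14% higher and 0.862% lower), and besides DTX20 only DTX10, which had 0.343, 0.520 and 0.526 CPM, against 0.914, 1.19 and 1.14 CPM in untreated tpst roots (log2 -1.21 ± 0.35 SE, adjusted p = 0.029). The DTX10 call was lost in 4 of the 6 fits with 1 library left out, those without untreated replicate 2 or 3 or 11 day replicate 1 or 2, with log2 values of -1.04 to -1.30 and adjusted p of 0.052 to 0.12.

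Between 5 h and 30 min of PSK, DTX20 (log2 1.99 ± 0.42 SE, adjusted p = 0.01) and DTX43 (log2 1.39 ± 0.35 SE, adjusted p = 0.022) were higher after 5 h in roots, with 0.988% of all genes called (0.726% higher and 0.262% lower). DTX43 (FRD3) releases citrate into the root xylem, where it carries iron. It had 37.6, 55.3 and 18 CPM after 5 h, against 11.97, 15.8 and 14.6 CPM after 30 min, and neither time differed from untreated tpst, with 20.5, 21.1 and 19.1 CPM, by the call used here. Without 30 min replicate 1, 2 or 3 or without 5 h replicate 2, DTX43 was not called, and without 30 min replicate 2 neither member was. DTX27 had 122.9, 143.5 and 113 CPM in roots after 5 h, against 67.9, 74.7 and 62.5 CPM in untreated tpst roots. These groups did not overlap, and its log2 values of 0.93 after 2 h (adjusted p = 0.00036), 0.89 after 5 h (adjusted p = 0.00013) and 0.84 after 11 days (adjusted p = 0.00027) lay just under the 2-fold limit.

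**Figure D4:**
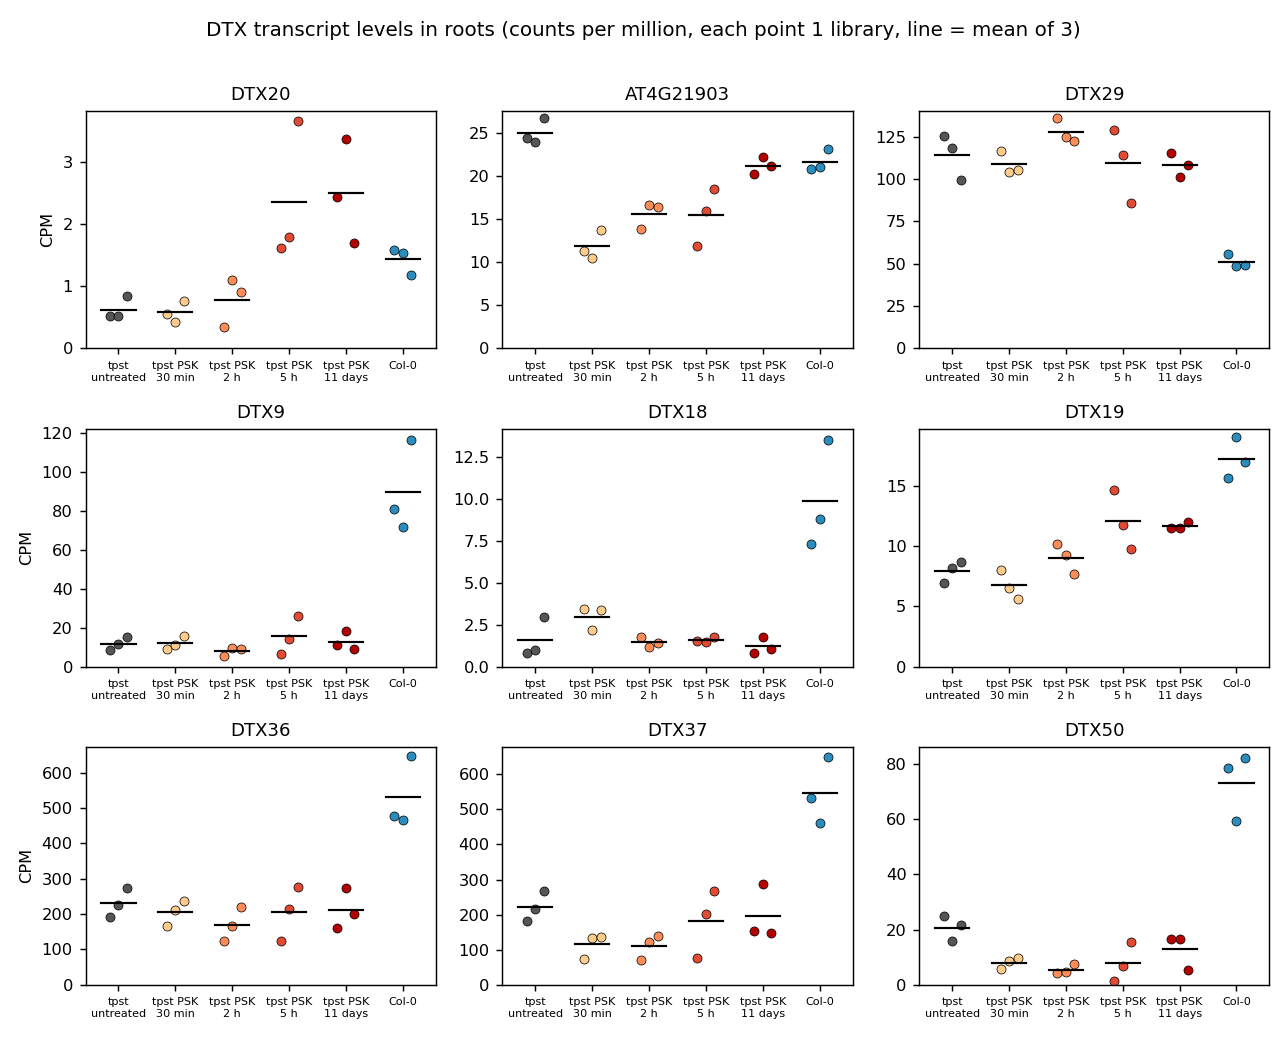
CPM of 9 members in the 18 root libraries, 1 point a library and a line at the mean of 3, with untreated tpst at the left, the PSK times in order and Col-0 at the right. DTX20 was above untreated tpst after 5 h and 11 days, while DTX9, DTX18, DTX36 and DTX50 stayed below Col-0 in all 15 tpst libraries.

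The difference between shoots and roots was tested directly, as the response in roots minus that in shoots, with an adjusted p under 0.05 and no fold minimum. At 5 h 12 members differed, 3 of them more positive and 9 more negative in roots, where 23.2% of all genes differed (12.3% higher and 10.9% lower in that sense). DTX4 had a log2 fold change of -1.34 in roots, against 3.75 in shoots, a difference of -5.13 ± 0.92 (SE, adjusted p = 0.00016). Its root value rests on very few counts, with 0.0854, 0 and 0.415 CPM after 5 h, against 0.516, 0.357 and 0.404 CPM in untreated tpst roots, and DTX4 was not called there. For DTX27 the values were 0.89 in roots, against 2.12 in shoots, and for DTX25 they were 0.06 in roots, against -2.72 in shoots. The root value of DTX25 joins unlike libraries, with 1.54, 1.94 and 11.9 CPM after 5 h, against 5.24, 4.44 and 5.03 CPM in untreated tpst roots. After 30 min and 2 h DTX25 had 1.57 to 2.63 and 2.23 to 3.42 CPM in roots, below every untreated library, and was not called. At 11 days 14 members differed, 5 more positive and 9 more negative in roots, beside 20% of all genes (10.6% and 9.39%). At 2 h 5 members did, 1 more positive and 4 more negative, beside 4.83% of all genes (2.43% and 2.4%). Seedlings were divided into shoot and root, but the fit treats the libraries as independent.

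Untreated tpst also differed from Col-0, in a comparison that uses the same untreated tpst libraries as those with PSK. In shoots 8 members were higher in untreated tpst than in Col-0 (DTX6, AT4G21903, DTX18, DTX4, DTX30, DTX5, DTX14 and DTX15) and 3 were lower (DTX9, DTX28 and DTX50), 26.8% of the 41 tested, beside 5.7% of all genes (4.36% higher and 1.34% lower). The median log2 fold change of the members was 0.28, against -0.01 over all genes. DTX18 had 107, 88.3 and 102 CPM in untreated tpst shoots, against 28.8, 26.3 and 27.5 CPM in Col-0 shoots, more than the spread of either group (log2 1.84 ± 0.35 SE, adjusted p = 0.00089). DTX6, a member linked to tolerance of the herbicide paraquat, had 6.62, 5.34 and 5.33 CPM in untreated tpst shoots, against 2.00, 2.54 and 2.61 CPM in Col-0 shoots (log2 1.27 ± 0.22 SE, adjusted p = 0.00043). Its neighbours in the cluster rose as well where they were called: DTX4 by log2 1.99 ± 0.37 (SE, adjusted p = 0.0009) and DTX5 by 2.27 ± 0.52 (adjusted p = 0.0041), while DTX2, with a log2 of 0.84, was under the 2-fold limit. DTX5 had 0.860, 0.804 and 0.831 CPM in untreated tpst shoots, against 0.319, 0.181 and 0 CPM in Col-0 shoots.

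AT4G21903 had 3.74, 3.82 and 4.99 CPM in untreated tpst shoots, against 1.18, 1.96 and 1.79 CPM in Col-0 shoots (log2 1.34 ± 0.25 SE, adjusted p = 0.00086). DTX30, which has been tied to auxin levels and aluminium tolerance of roots, had 5.16, 6.31 and 5.09 CPM in untreated tpst shoots, against 2.37, 2.76 and 2.2 CPM in Col-0 shoots (log2 1.17 ± 0.25 SE, adjusted p = 0.0022). These 2 members, with DTX5 and DTX6, were called higher in roots than in shoots of Col-0. In the same shoot libraries the 9 root markers summed to 863 to 1001 CPM in untreated tpst, against 574 to 668 CPM in Col-0. Most of each sum was PYK10, with 844 to 973 CPM in untreated tpst shoots and 567 to 656 CPM in Col-0 shoots. By their means 8 of the 9 markers were higher in tpst, with 5 of the 9 called higher and none at 0. The part of root RNA in the changes of these members was not tested. DTX14 had 11.6, 8.68 and 9.07 CPM in untreated tpst shoots, against 6.74, 3.66 and 3.62 CPM in Col-0 shoots (log2 1.07 ± 0.25 SE, adjusted p = 0.0043), and DTX9 had 12.5, 12.5 and 19.8 CPM in untreated tpst shoots, against 26.5, 33.1 and 38.5 CPM in Col-0 shoots (log2 -1.13 ± 0.18 SE, adjusted p = 0.00024). Both ranges were apart, but the DTX14 change dropped below 2-fold (log2 0.93 to 0.94) without Col-0 replicate 2 or 3 or untreated replicate 1, and that of DTX9 (log2 -0.97) without Col-0 replicate 3. DTX28 had 3.18, 2.25 and 3.29 CPM in untreated tpst shoots, against 4.24, 7.73 and 6.05 CPM in Col-0 shoots, and DTX50 had 12.5, 19.7 and 43.9 CPM in untreated tpst shoots, against 52.7, 53.1 and 68.2 CPM in Col-0 shoots. The calls of DTX15, DTX28 and DTX50 depended on single libraries. DTX15 was at log2 1.32 to 1.56 (adjusted p = 0.055 to 0.069) without Col-0 replicate 1 or 2 or untreated replicate 3. DTX28 was at -0.80 and -0.90 without Col-0 replicate 2 or untreated replicate 2. DTX50 was at -0.86 to -1.23 (adjusted p = 0.073 to 0.17) without any Col-0 library or untreated replicate 1 or 2.

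In roots the direction was mostly down: 9 members were lower in untreated tpst than in Col-0 (DTX9, DTX19, DTX18, DTX48, DTX36, DTX49, DTX50, DTX37 and DTX28) and 1, DTX29, was higher, 22.2% of the 45 tested, beside 6.78% of all genes (3.12% higher and 3.67% lower). DTX49 passed the filter on low counts only through Col-0, where it was high, which leaves 9 called members, 8 lower and 1 higher, without it. The median over the members was -0.04, against 0.02 over all genes. An unadjusted p under 0.05 was found for 21 of the 45 members, a share that was not counted over all genes. DTX9 had 8.62, 11.4 and 15.3 CPM in untreated tpst roots, against 81.1, 71.7 and 116.7 CPM in Col-0 roots (log2 -2.93 ± 0.41 SE, adjusted p = 0.00018). DTX18 had 0.834, 0.991 and 2.94 CPM in untreated tpst roots, against 7.31, 8.79 and 13.5 CPM in Col-0 roots (log2 -2.62 ± 0.40 SE, adjusted p = 0.00034), opposite to its direction in shoots. DTX19 had 6.91, 8.21 and 8.71 CPM in untreated tpst roots, against 15.7, 19.1 and 17.0 CPM in Col-0 roots (log2 -1.12 ± 0.16 SE, adjusted p = 0.00019). For all 3 genes the groups were well apart.

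DTX36, the most abundant member in Col-0 roots, had 193, 225 and 273 CPM in untreated tpst roots, against 478, 467 and 647 CPM in Col-0 roots (log2 -1.20 ± 0.28 SE, adjusted p = 0.006). DTX37 had 181, 217 and 266 CPM in untreated tpst roots, against 531, 461 and 649 CPM in Col-0 roots (log2 -1.30 ± 0.39 SE, adjusted p = 0.026). DTX48 had 6.12, 5.43 and 5.26 CPM in untreated tpst roots, against 9.45, 13.8 and 19.9 CPM in Col-0 roots (log2 -1.36 ± 0.24 SE, adjusted p = 0.001). DTX50, which exports the hormone abscisic acid from cells, had 24.7, 15.9 and 21.5 CPM in untreated tpst roots, against 78.5, 59.4 and 82.2 CPM in Col-0 roots (log2 -1.82 ± 0.53 SE, adjusted p = 0.021). None of these groups overlapped. DTX49 had 3, 0 and 0 counts in untreated tpst roots, against 11, 18 and 12 counts in Col-0 roots, a ratio of 0.0711 of the depth-scaled sums with an exact 95% counting interval of 0.0141 to 0.223. DTX29 had 125.1, 118 and 99.1 CPM in untreated tpst roots, against 55.7, 48.7 and 49.5 CPM in Col-0 roots (log2 1.15 ± 0.12 SE, adjusted p = 1.7e-05).

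Calls in roots of DTX37, DTX28, DTX50 and DTX49 depended on single libraries. DTX37 was at log2 -1.17 to -1.29 and DTX28 at -1.68 to -1.85 without Col-0 replicate 3, untreated replicate 1 or untreated replicate 2, with adjusted p of 0.072 to 0.11. DTX50 was at -1.66 to -1.84 (adjusted p = 0.051 to 0.079) without Col-0 replicate 1 or 3 or untreated replicate 2 or 3, and DTX49 lost its call (adjusted p = 0.053 to 0.058) without Col-0 replicate 2 or untreated replicate 2 or 3. The means of all 16 photosynthesis markers were higher in untreated tpst roots than in Col-0 roots, and 10 of 16 were called, and their part in these results was not tested. Without the library where they summed to 2460 CPM, all of the 10 but DTX49 and DTX50 were still called, and DTX54 was called as well.

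**Figure D5:**
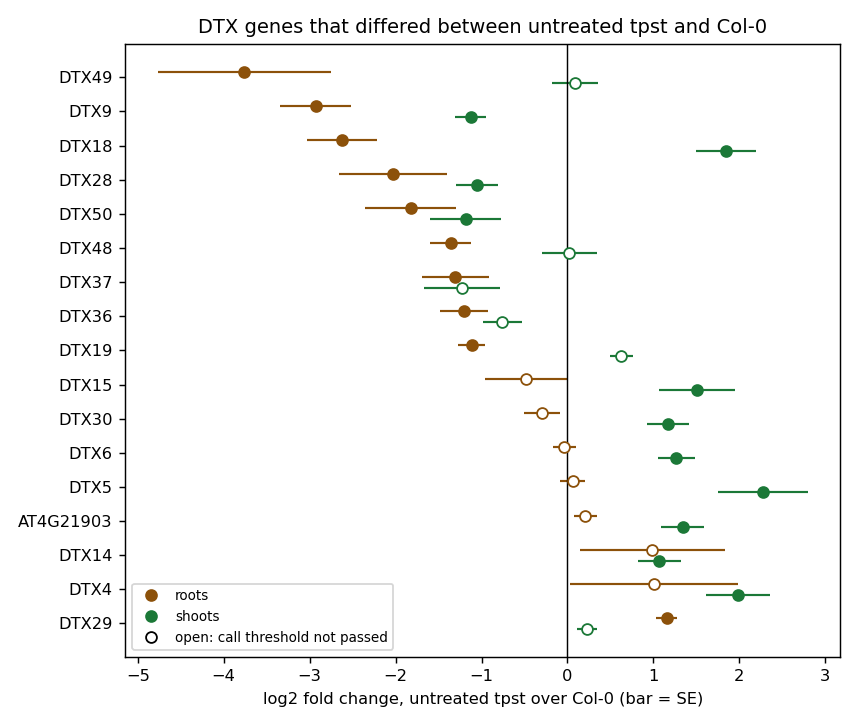
Log2 fold change of untreated tpst over Col-0, with SE, in roots (brown) and shoots (green) for the 17 members called in at least 1 tissue; filled points passed the call. DTX18 lies at -2.62 in roots and 1.84 in shoots, on opposite sides of 0, and DTX9 lies below 0 in both. DTX49 was tested in roots only through Col-0, where it was high.

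The comparison of PSK for 11 days with Col-0 shares the Col-0 libraries with that of untreated tpst. Roots of tpst with 11 days of PSK were lower than Col-0 in 7 members (DTX18, DTX9, DTX36, DTX50, DTX37, DTX28 and DTX49) and higher in DTX29, with 7.95% of all genes called (3.67% higher and 4.28% lower), and 6 were lower without DTX49, which was tested only through Col-0. DTX9 had 11.1, 18.2 and 9.24 CPM in roots given PSK for 11 days, 8.62 to 15.3 CPM in untreated tpst roots and 71.7 to 117 CPM in Col-0 roots. DTX18 had 0.8004, 1.77 and 1.02 CPM after 11 days, and DTX29 had 115, 101 and 108.3 CPM, both within or close to the untreated tpst range. DTX19 had 11.6, 11.5 and 12.04 CPM after 11 days, above the untreated tpst roots and below the Col-0 roots, and was not called in either comparison (log2 0.56 against untreated tpst and -0.56 against Col-0).

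The effect of the mutation differed between the tissues for 16 members, where 17.7% of all genes differed (9.8% more positive and 7.95% more negative in roots). The log2 fold change was more negative in roots for 15 of them and more positive for DTX29. DTX18 showed the largest difference (-4.42 ± 0.55 SE, adjusted p = 6.3e-06), and DTX19, its neighbour, differed by -1.71 ± 0.21 (adjusted p = 4.9e-06), with a log2 fold change of -1.12 in roots, against 0.63 in shoots.

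Several other members with a known role were not called with PSK. DTX35 (FFT), a vacuolar transporter linked to flavonoid levels and, with DTX33, to chloride and turgor, had log2 fold changes of 0.23, 0.56, 0.43 and 0.73 in shoots after 30 min, 2 h, 5 h and 11 days. DTX33 had -0.08, 0.40, 0.60 and 0.66. The values from 2 h on passed the adjusted p but not the 2-fold limit in both genes. DTX42, a citrate exporter of aluminium tolerance, stayed between 0.07 and 0.64 in shoots and between 0.04 and 0.37 in roots. DTX51 (ADS1), a negative regulator of disease resistance, had log2 -0.87 after 11 days in shoots (adjusted p = 0.00022) and was not called. DTX56 (RHC1), part of the stomatal response to carbon dioxide, had -0.94 after 11 days in shoots (adjusted p = 0.00056), likewise not called. DTX46 was not called in any of the 10 comparisons. DTX50 had log2 fold changes of -1.40, -1.95, -1.39 and -0.70 in roots after 30 min, 2 h, 5 h and 11 days. None was called by edgeR in the fit of all root groups (adjusted p = 0.0597 to 0.396), although all but the last exceeded 2-fold. DESeq2 called DTX50 after 2 h, as did edgeR with a replicate block or on the 6 libraries of that comparison alone. After 2 h its 4.23, 4.51 and 7.39 CPM did not overlap the 15.9 to 24.7 CPM of untreated tpst roots.

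A list of 26 genes linked to foreign compounds was chosen with earlier results of these data known, and whether they act with the DTX members was not tested. The list held genes of reductases, P450s, glutathione and glucosyl transferases, ABC exporters and TGA and SCL14 regulators. In shoots none of them was called by edgeR after 30 min (0.663% of all genes), and 1, UGT74E2, was upregulated after 2 h (4.29% of all genes). After 5 h 19 were upregulated and none downregulated, with a median log2 of 1.49 over the list and -0.01 over all genes, of which 17% were called. After 11 days 11 were upregulated and 2 downregulated, with a median of 0.83, beside 14.7% of all genes called. The upregulated genes at both times include GSTU2, which had 0 CPM in all untreated tpst and Col-0 shoot libraries. It had 0.231, 0.626 and 0.115 CPM after 5 h and 0.854, 0.219 and 1.08 CPM after 11 days. GSTU2 had enough counts for a test only through these groups, where it was high. The members with the smallest adjusted p after 5 h were GSTU24, OPR2, UGT74E2, GSTU1, AER and UGT73B2. GSTU24, a glutathione S-transferase, had 133, 176 and 148 CPM after 5 h, against 11.1, 11.6 and 15.6 CPM in untreated tpst shoots (log2 3.57 ± 0.17 SE, adjusted p = 1.4e-10). UGT74E2, a glucosyltransferase of the auxin indole-3-butyric acid, had 115, 178 and 122 CPM after 5 h, against 0.903, 0.884 and 1.94 CPM in untreated tpst shoots (log2 6.76 ± 0.41 SE, adjusted p = 1.1e-09). OPR2, a reductase of the oxophytodienoate reductase family, had 86.2, 85.3 and 78.1 CPM, against 23.7, 27.6 and 28.9 CPM in untreated tpst shoots (log2 1.64 ± 0.09 SE, adjusted p = 6.7e-10).

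In roots none of the 25 genes of the list that were tested was called after 30 min, and 5, 6 and 4 were upregulated after 2 h, 5 h and 11 days with none downregulated. The medians were log2 0.41, 0.34 and 0.31, and 1.41%, 2.49% and 2% of all genes were called. In untreated tpst against Col-0, 8 genes of the list were upregulated in shoots (median 0.53, 5.7% of all genes called) and 8 were downregulated in roots (median -0.72, 6.78% of all genes called). CYP81D11, a P450 inducible by toxic compounds, had 0.318, 0.555 and 0.404 CPM in untreated tpst roots, against 6.43, 11.3 and 12.8 CPM in Col-0 roots (log2 -4.56 ± 0.77 SE, adjusted p = 0.00067). OPR1 had 24.8, 29.2 and 31.7 CPM in untreated tpst roots, against 116.5, 117.4 and 141 CPM in Col-0 roots (log2 -2.13 ± 0.24 SE, adjusted p = 2.7e-05).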

How the data were processed

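Per the study's methods the authors aligned reads to TAIR10 with HISAT2 2.0.5 and made gene counts with featureCounts 1.5.0-p3, and the submitters' processing notes also name fastp. The deposited table holds raw counts and the FPKM values the authors computed from them. Strand and multi-mapping settings are not given in the sources used here, so near-identical tandem members could share reads.

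Counts were tested with the quasi-likelihood test of edgeR 4.0.16 (R 4.3.3) with TMM factors and filterByExpr (minimum count 10), in 1 fit a tissue over its 6 groups and 1 fit over both tissues for tissue differences. Adjusted p-values (Benjamini-Hochberg) cover all genes tested, and CPM values are TMM-scaled. Scripts were tested on simulated data. Alternatives were RLE factors, no filter, DESeq2 1.42.0, the 6 libraries of a comparison alone, a replicate block and each library left out. Of the groups compared, 1 pair (roots, 5 h and 30 min) had all 3 same-numbered correlations over 0.1 (0.272, 0.198 and 0.25). Members and lists were chosen with earlier results of these data known. Values in every library were given for up to 8 called members a comparison with the smallest adjusted p, for members with a known role by level and calls, and for tandem neighbours. From the xenobiotic list up to 6 called genes a comparison could be named. The 3 rows left out are not reported here.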

Additional observations from a re-analysis of the deposited data

Results flagged for a closer look

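Responses that differed between the tissues by the direct test (roots minus shoots on the log2 scale, edgeR quasi-likelihood, adjusted p under 0.05) are given for members called in at least 1 tissue. After 2 h of PSK these were DTX4 (-4.14) and DTX5 (1.81). After 5 h they were DTX27 (-1.25), DTX21 (-0.86), DTX4 (-5.13), DTX25 (2.76), DTX19 (-0.94), DTX7 (-2.91), DTX8 (-2.74), DTX15 (-1.84) and DTX5 (1.13). After 11 days they were DTX21 (-0.84), DTX7 (-4.33), DTX15 (-3.11), DTX19 (-0.96), DTX11 (-1.04), DTX4 (-3.64), DTX25 (2.06) and DTX27 (-0.50). For untreated tpst over Col-0 they were DTX19 (-1.71), DTX18 (-4.42), DTX29 (0.96), DTX6 (-1.27), DTX5 (-2.19), DTX49 (-3.79), DTX30 (-1.43), AT4G21903 (-1.10), DTX9 (-1.77), DTX48 (-1.35) and DTX15 (-1.95). DTX18 was the only one of these members called in opposite directions in roots and shoots. In every root library DTX4, DTX7, DTX8, DTX15 and DTX49 stayed under 1 CPM, as did DTX5 in every shoot library, so the size of their differences rests on low counts.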

How the results depend on the processing

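Of 228 alternative counts of members called, 197 stayed within 1.5 times the reported count. With the 6 libraries of a comparison alone, roots had 3 members called after 30 min, 2 after 2 h, 0 after 5 h, 1 after 11 days and 0 between 5 h and 30 min. After 2 h in roots the replicate block gave 2 (DTX37 and DTX50) and DESeq2 1 (DTX50). Without a filter on low counts 3 members had a tissue difference after 2 h. With 1 library left out, counts in roots ranged from 0 to 2 (30 min), 0 to 1 (2 h), 1 to 4 (5 h), 1 to 2 (11 days), 0 to 3 (5 h against 30 min) and 6 to 10 (untreated tpst against Col-0), from 7 to 11 for untreated tpst against Col-0 in shoots, and from 2 to 5 for the 2 h tissue difference. Of 49 calls of named members under 537 alternatives, 484 were kept, 53 lost and 0 reversed, and 31 calls were kept throughout. Same-numbered libraries correlated by -0.0953 to 0.299 in shoots (median 0.0909, 21 of 45 over 0.1) and -0.266 to 0.348 in roots (median 0.118, 25 of 45), against medians of -0.0284 and -0.047 for different numbers. Except for roots at 5 h and 30 min, where the block also called 2 members, no compared groups had all 3 over 0.1, so by that rule numbers were not taken as pairs. By the medians, same-numbered libraries still correlated more than others in both tissues, and the fits without a block take no account of this. The replicate block changed no other count by over 1.5 times.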
